A study of Mus musculus with 42 samples.

Results

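The ABC transporters are membrane proteins that use ATP to move lipids, bile acids, drugs, ions and peptides across a membrane, and they are sorted by sequence into the subfamilies A to G. In the liver, members of subfamilies B, C and G sit in the bile canaliculus and make bile by exporting bile salts, phospholipid, conjugated bilirubin and sterols, while Abca1 and Abcg1 pass cholesterol to lipoproteins in many tissues, fat included. Members of subfamily D lie in peroxisomes and lysosomes, and the proteins of subfamilies E and F have no membrane-spanning part and work at the ribosome. The members described here are all genes whose symbol is Abc followed by a letter from a to g and a digit and that at least 1 probe set named alone. They are 45 of the 18193 genes so named, with 92 of the 45037 probe sets tested. Subfamily A has 14 of these genes, B has 8, C has 10, D has 3, E has 1, F has 3 and G has 6.

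The RNA came from male ddY mice, which were 5 weeks old on arrival and were fed ad libitum until the food was taken away in the morning of the last administration, so that the tissues came from mice without food for some hours. Over 5 daily administrations the mice received by mouth 37.5 μL per g of body weight of either a 1.8% solution of VAAM, an amino acid mixture modelled on the larval saliva of hornets, or water. The liver, white fat (WAT) and brown fat (BAT) were taken 4 h after the last administration, and RNA of 7 VAAM mice and 7 water mice per tissue was hybridised to 42 Affymetrix mouse arrays. A group that received a mixture modelled on casein was not analysed here. The tissues are whole organs, so a lower share of a cell type and less RNA per cell cannot be told apart. Measured hepatocyte markers lay between the 97.3 and 100 percentile of all probe sets on the liver arrays (5 of 6 genes measured), adipocyte markers between 97.1 and 100 on the WAT arrays (5 of 6), and brown adipocyte markers between 59.3 and 100 on the BAT arrays against 16.5 to 71.4 on the WAT arrays (6 of 6). Not every marker was particular to its tissue. The hepatocyte marker Cyp2e1 lay at 99.9 in WAT and 93.5 in BAT (medians of the list 54.6 and 46.2). In liver the adipocyte marker Lpl lay at 92.2 (median of the list 50.4). The brown adipocyte marker Elovl3 lay at 92.6 in liver (median of the list 39.7) and 85.6 in BAT. Epididymis markers reached 85.3 in WAT (6 of 7 measured, median 73.5), and skeletal muscle markers lay at 66 to 87.9 in BAT (6 of 6). One array of liver, 1 of WAT and 2 of BAT, all of VAAM mice, scored over 2.2 SD on 1 of the first 3 principal components.

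A level is the deposited log2 value of a probe set. The summary that the authors used leaves almost no spread within a tissue, and 271 of 276 pairs of VAAM and water means of an ABC probe set in a tissue were equal to 2 decimals, with a largest difference of 0.01. Differences between VAAM and water are therefore given in units of the pooled SD within the groups, ± standard error, and never as a fold change. This unit can be minute. The SD over the 14 arrays was 5.6e-06 log2 units for Abcb8 1422015_a_at in liver and 7.2e-07 for Abcg5 in BAT, against 0.0072 for Abcd2 1419748_at in liver. A large difference in SD is therefore not a large difference in level. The value of a single mouse is its deviation from the mean of the 14 mice of the tissue in the same unit. The tissues were put on different scales, with array medians of 6.7294 to 6.7297 in liver, 6.9076 to 6.9133 in WAT and 6.7739 to 6.7754 in BAT. Across tissues a probe set is therefore described by its percentile on the array and by its level after quantile normalisation over the 42 arrays. Levels of different probe sets are not compared with each other.

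The stretches of DNA below belong to members that the results return to, namely the pair Abcg5 and Abcg8, which share a promoter region, members that were high in liver (Abcb11, Abcb4, Abcc2), and members that were high in WAT (Abca1, Abca9). They come from the RefSeq promoter table (GRCm38.p6), which matched 35 of the 45 genes. Each ends at the last base before a transcript start in that table. The RefSeq bounds of Abca1, Abca9 and Abcb4 extend into their stretches, so part of each of these stretches is transcribed from a further start. That part holds the TATAAA of Abca1 and the GGGCGG of Abcb4. The table holds a start of Abcg5, on the minus strand, and a start of Abcg8, on the plus strand, only 109 bases apart. The first stretch is the whole interval between these starts (chr17:84683012-84683120, plus strand). The RefSeq bounds of Abcg8 begin at 84676302, inside Abcg5, so RefSeq has a further start of Abcg8, which was not used. The others hold the 250 bases before the start of Abcb11 (chr2:69342617-69342866, minus strand), Abcb4 (chr5:8893471-8893720, plus strand), Abcc2 (chr19:43782058-43782307, plus strand), Abca1 (chr4:53159896-53160145, minus strand) and Abca9 (chr11:110168154-110168403, minus strand). Capitals mark matches, on either strand, to AGGTCA (the half-site of many nuclear receptors), TATAAA (the TATA box), CCAAT or GGGCGG (the core of the GC box).
Abcg5 and Abcg8: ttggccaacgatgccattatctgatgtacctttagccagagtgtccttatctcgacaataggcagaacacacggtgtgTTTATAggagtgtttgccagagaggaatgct
Abcb11: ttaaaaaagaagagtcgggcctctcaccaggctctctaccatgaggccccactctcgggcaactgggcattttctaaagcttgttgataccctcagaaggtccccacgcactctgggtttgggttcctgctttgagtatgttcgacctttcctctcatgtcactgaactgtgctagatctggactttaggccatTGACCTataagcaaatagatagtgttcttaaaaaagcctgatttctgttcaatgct
Abcb4: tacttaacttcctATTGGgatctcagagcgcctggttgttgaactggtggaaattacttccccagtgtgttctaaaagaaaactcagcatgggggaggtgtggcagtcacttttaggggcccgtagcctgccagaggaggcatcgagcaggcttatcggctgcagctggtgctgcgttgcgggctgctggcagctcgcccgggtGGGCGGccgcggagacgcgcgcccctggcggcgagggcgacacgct
Abcc2: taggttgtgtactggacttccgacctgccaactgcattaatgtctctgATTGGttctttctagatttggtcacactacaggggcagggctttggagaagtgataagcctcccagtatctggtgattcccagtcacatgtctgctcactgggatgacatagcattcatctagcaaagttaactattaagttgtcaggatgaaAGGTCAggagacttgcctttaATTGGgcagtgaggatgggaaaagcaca
Abca1: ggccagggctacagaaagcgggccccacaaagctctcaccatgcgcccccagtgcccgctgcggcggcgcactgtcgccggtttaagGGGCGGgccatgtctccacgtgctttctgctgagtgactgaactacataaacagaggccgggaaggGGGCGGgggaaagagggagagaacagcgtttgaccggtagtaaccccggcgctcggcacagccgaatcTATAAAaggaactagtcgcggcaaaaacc
Abca9: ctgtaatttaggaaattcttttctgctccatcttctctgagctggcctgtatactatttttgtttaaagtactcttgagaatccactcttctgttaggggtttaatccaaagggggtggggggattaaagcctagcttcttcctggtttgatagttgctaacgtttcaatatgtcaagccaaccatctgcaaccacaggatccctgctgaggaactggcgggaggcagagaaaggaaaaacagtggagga

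The interval between the starts of Abcg5 and Abcg8 used here held 1 match, TATAAA read on the minus strand, whose far end lies 31 bases before this start of Abcg8. Of all 109-base stretches before a start in the table, 5.9% hold TATAAA. The half-site AGGTCA was found once before Abcb11 and once before Abcc2, and it is present in 14% of the 32851 promoters of 250 bases. Abcc2 also had CCAAT 2 times and Abcb4 once, against 33.8% of all promoters with at least 1 match. GGGCGG stood once before Abcb4 and 2 times before Abca1, and 32.7% of all promoters hold it. Abca1 also held TATAAA 29 bases before the start used here, within the RefSeq bounds of the gene. Of all promoters, 12.4% hold TATAAA somewhere in this window. The Abca9 stretch held no match, and GTTAAT (a half-site of HNF1), TGTTTAC (FOXA) and CAAAGTCCA (HNF4) were in none of the 6 stretches. A match or its absence describes these letters only.

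The 45 genes differed widely between the tissues. The largest difference was in Abcb11, of bile formation (liver minus WAT 4.99 log2 units), and the next in Abcd2, of peroxisomes (liver minus WAT -4.46). In liver, 12 of 45 genes stood 1 log2 unit or more above both fat tissues after quantile normalisation over the 42 arrays, against 5.43% of all genes. They are 3 of 14 genes of subfamily A (Abca3, Abca6, Abca8b), 3 of 8 of subfamily B (Abcb4, Abcb6, Abcb11), 3 of 10 of subfamily C (Abcc2, Abcc3, Abcc6) and 3 of 6 of subfamily G (Abcg2, Abcg5, Abcg8). Pair by pair, 13 of 45 genes were higher in liver than in WAT by this step (7.23% of all genes) and 6 lower (8.62%), 13 were higher in liver than in BAT (6.94%) and 5 lower (7.26%), and 2 were higher in BAT than in WAT (3.83%) and 4 lower (4.2%). In WAT, 3 of 45 genes stood as far above both other tissues (Abca1, Abca9, Abcd2), against 2.68% of all genes, and in BAT none did, against 1.98%. In 4 genes the liver was the lowest by 1 unit or more (Abcb1b, Abcc1, Abcc4, Abcd2), and in 23 genes, the members of subfamilies E and F among them, no pair of tissues differed by 1 unit.

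**Figure D1:**
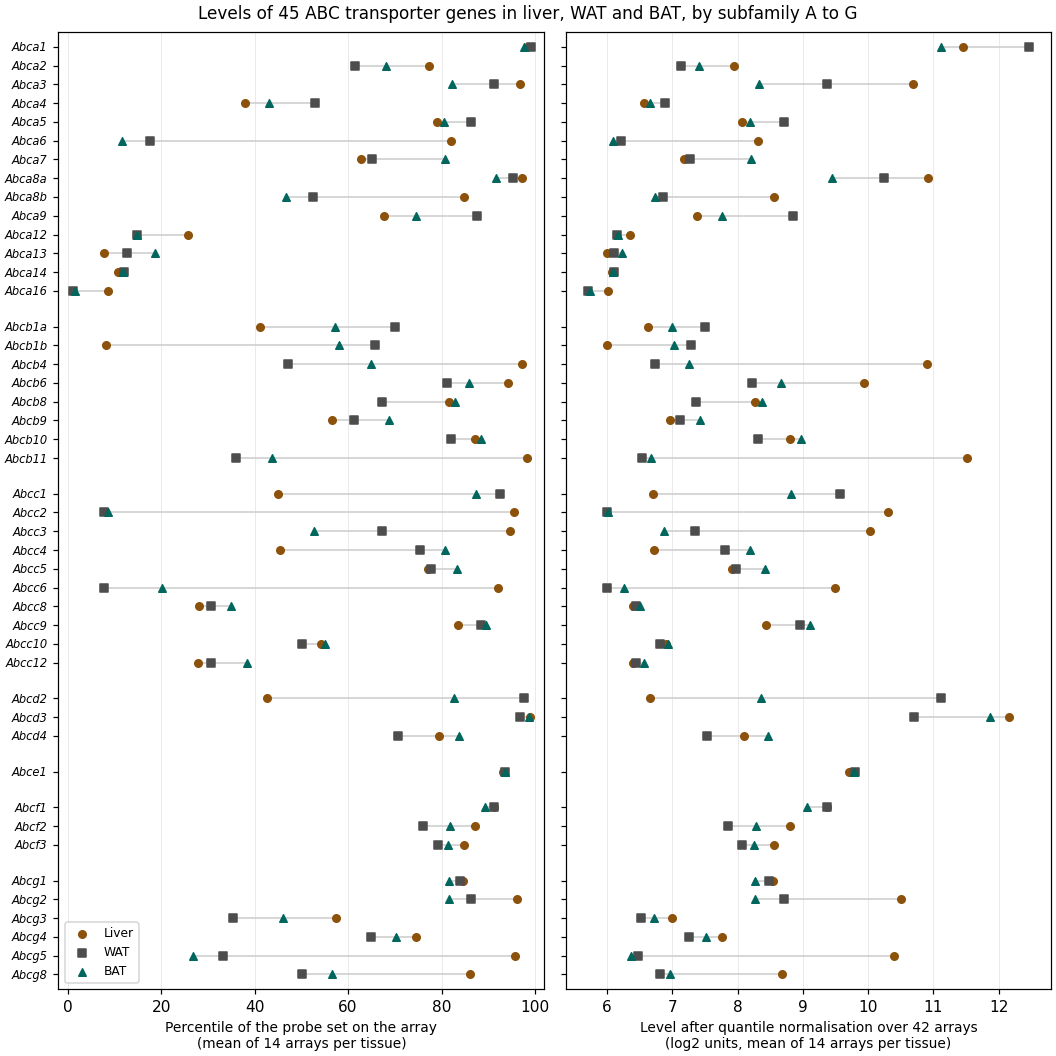
Level of 45 ABC genes in liver (circles), WAT (squares) and BAT (triangles), grouped by subfamily, with 1 representative probe set per gene. The left panel gives the mean percentile of the probe set on the 14 arrays of a tissue, the right panel its mean level in log2 units after quantile normalisation over 42 arrays. Abcb11 lies at 98.3 in liver, 36.0 in WAT and 43.7 in BAT, and Abcd2 at 42.7 in liver, 97.6 in WAT and 82.6 in BAT.

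The exporters Abcb11, Abcb4, Abcc2, Abcg5 and Abcg8 lay between the 86.0 and 98.3 percentile of the liver arrays. In fat they lay nowhere above the 65.0 percentile. Abcb11, the bile salt export pump, lay at the 98.3 percentile in liver, 36.0 in WAT and 43.7 in BAT, with a level 4.99 above WAT and 4.85 above BAT. Abcb4, which brings phosphatidylcholine to the outer leaflet of the canalicular membrane, lay at 97.2 in liver, 47.2 in WAT and 65.0 in BAT, and its level was 4.16 and 3.64 above WAT and BAT. Abcc2, the exporter of bilirubin and glutathione conjugates into bile, lay at 95.6 in liver, 7.8 in WAT and 8.6 in BAT. Both subunits of the sterol exporter were high in liver as well. Abcg5 lay at 95.8 in liver, 33.2 in WAT and 26.8 in BAT, and Abcg8, on the other side of the shared interval printed above, lay at 86.0 in liver, 50.2 in WAT and 56.6 in BAT.

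Other genes of subfamilies A, B, C and G were high in liver too. Abcc3, which exports conjugates back into blood, lay at 94.6 in liver, 67.2 in WAT and 52.7 in BAT. Abcc6, whose loss gives ectopic calcification, lay at 92.0 in liver, 7.7 in WAT and 20.1 in BAT. Abcg2, an exporter of urate and xenobiotics, lay at 96.2 in liver, 86.3 in WAT and 81.6 in BAT. Abcb6, a porphyrin transporter, lay at 94.2 in liver, 81.1 in WAT and 85.9 in BAT, and Abca6 at 82.1 in liver, 17.6 in WAT and 11.7 in BAT. Abca3, known for loading lipid into surfactant organelles of the lung, lay at 96.7 in liver, 91.3 in WAT and 82.2 in BAT.

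The largest difference in favour of fat was in Abcd2, a peroxisomal transporter of very long-chain acyl-CoA. It lay at the 42.7 percentile in liver, 97.6 in WAT and 82.6 in BAT, with a level in WAT 2.76 above BAT, and all 4 of its probe sets had WAT as the highest tissue. Its relative Abcd3, which carries acyl-CoA into the same organelle, was near the top of the array everywhere (99.0 in liver, 96.7 in WAT, 98.7 in BAT). Abcc1, an exporter of leukotriene C4 and glutathione conjugates, lay at 45.0 in liver, 92.5 in WAT and 87.3 in BAT. Abcc4, which exports cyclic nucleotides, lay at 45.4 in liver, 75.3 in WAT and 80.7 in BAT. The multidrug exporters were lowest in liver too, with Abcb1a at 41.2 in liver, 70.1 in WAT and 57.3 in BAT and Abcb1b at 8.2 in liver, 65.7 in WAT and 58.1 in BAT. A second probe set of Abcb1b had another order (37.7 in liver, 25.7 in WAT, 45.7 in BAT).

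The cholesterol exporters differed less. Abca1, which loads cholesterol and phospholipid onto apolipoprotein A-I, was near the top of the arrays of all tissues (98.2 in liver, 99.2 in WAT, 97.6 in BAT), with a level in WAT 1.03 above liver. By a second probe set liver was the highest (75.4 in liver, 69.2 in WAT, 62.0 in BAT). Abcg1, which passes cholesterol to HDL, lay at 84.7 in liver, 84.0 in WAT and 81.6 in BAT. Abca9, from the same cluster of genes as Abca6 and Abca8a, lay at 67.6 in liver, 87.5 in WAT and 74.5 in BAT, while Abca8a lay at 97.2 in liver, 95.4 in WAT and 91.7 in BAT. A second probe set of Abca9 did not have WAT as the highest tissue (30.3 in liver, 29.8 in WAT, 18.1 in BAT). Abca7, a phospholipid transporter, was the gene in which BAT stood farthest above the nearer tissue, by 0.93 (62.7 in liver, 65.2 in WAT, 80.7 in BAT).

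Abcc9, the SUR2 subunit of ATP-sensitive potassium channels, lay at 83.5 in liver, 88.4 in WAT and 89.5 in BAT, and Abcc8, the SUR1 subunit of the beta cell channel, at 28.0, 30.7 and 34.9. Abcb8, of the inner mitochondrial membrane, lay at 81.6 in liver, 67.2 in WAT and 82.9 in BAT, and Abcb10, of the same membrane and known for its part in heme synthesis, at 87.1, 82.1 and 88.5. Abce1, which splits ribosomes after termination, lay between 93.2 and 93.6 in the 3 tissues, and Abcf1, Abcf2 and Abcf3 between 76.0 and 91.3. Of the members, 6 from subfamilies A and C were below the 40 percentile in all tissues, namely Abca12, Abca13, Abca14, Abca16, Abcc8 and Abcc12, the last with a second probe set at 42.6 in liver.

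Within a tissue a representative probe set moved by at most 0.046 in level and 1.5 in percentile over the 14 arrays. In 4 genes (Abca12, Abca14, Abce1, Abcf1) neighbouring tissues lay within the range over the arrays. The summary leaves almost no spread within a tissue, so this range does not test the order of the tissues in the other genes. The share over all genes was not counted. Limma on the deposited values called nearly every probe set between tissues in water mice (99.8% of all for liver against WAT, 99.7% for liver against BAT and 99.8% for BAT against WAT, and all 92 of ABC genes in each), and nothing is read from that test. For the ABC probe sets the split was 42 higher and 50 lower in liver than in WAT as deposited (37.2% and 62.6% of all), and 50 and 41 after quantile normalisation over the 21 water arrays, where all probe sets split into 23013 higher and 21830 lower. For BAT against WAT it was 38 higher and 54 lower as deposited (36.9% and 62.8% of all) and 48 and 44 after quantile normalisation, where all probe sets split into 23448 and 21372. For liver against BAT it was 43 higher and 49 lower (44.3% and 55.4% of all). Of the 26 genes with several probe sets, 13 had the same highest tissue by every probe set.

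No ABC probe set passed limma at an adjusted p under 0.05 for VAAM against water in any tissue, and no other probe set of the arrays did either (0% called, 0 of 45037 in each tissue). At an unadjusted p under 0.05 in the same fit, 3 ABC probe sets were higher and 5 lower in the liver of VAAM mice (4.17% and 4.92% of all probe sets), 0 were higher and 3 lower in WAT (1.65% and 2.1%), and 0 were higher and 5 lower in BAT (2.16% and 2.93%). The smallest adjusted p of an ABC probe set was 0.33 in liver, 1 in WAT and 0.946 in BAT. Rank products, the test named in the methods of the study, at a false discovery rate under 0.05 gave 3 higher and 4 lower in liver (2.73% and 1.43% of all), 0 and 1 in WAT (1.99% and 1.47%) and 2 and 3 in BAT (2.14% and 2.25%). This test ranks raw differences across probe sets, so it favours those to which the summary left a wide spread.

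By their representative probe sets, 15 ABC genes were higher and 30 lower in the liver of VAAM mice, with a median difference of -0.11 SD against -0.05 over all genes. In WAT 20 were higher and 25 lower (median -0.09, all genes 0.00), and in BAT 21 were higher and 24 lower (median -0.04, all genes 0.02). The signs depended on the scaling. After quantile normalisation of the arrays of a tissue the counts were 13 higher and 28 lower in liver, 0 and 45 in WAT and 6 and 39 in BAT, with medians over all genes of -0.32, -0.47 and -0.21. With each array centred on its median they were 3 and 42, 0 and 45, and 35 and 10, with medians over all genes of -0.46, -0.59 and 0.01. A difference over 1 SD was found for 6 of 45 ABC genes in liver (13.7% of all genes), 2 in WAT (6.43%) and 3 in BAT (7.99%). In no ABC gene were the groups without overlap, which was the case for 0.132% of all genes in liver, 0.055% in WAT and 0.0385% in BAT.

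**Figure D2:**
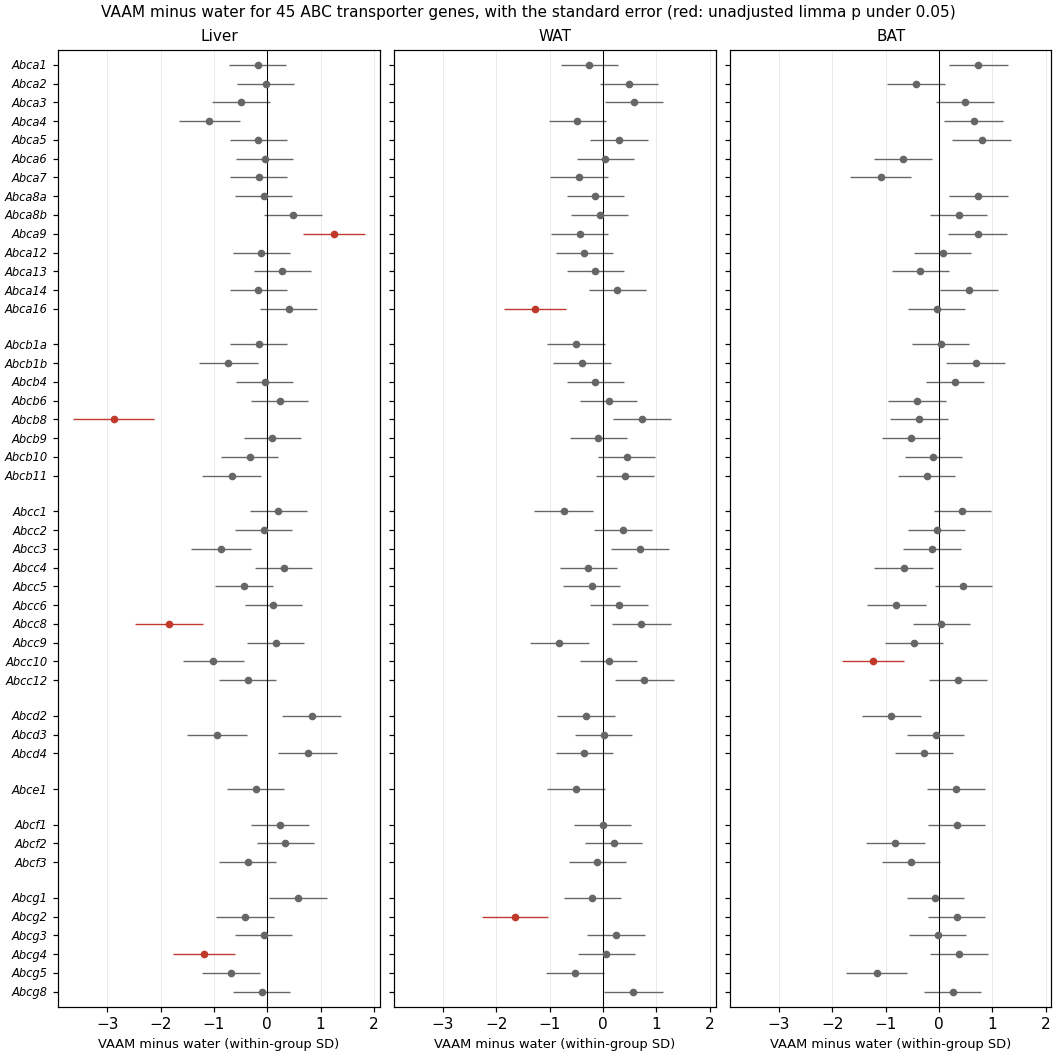
VAAM minus water for 45 ABC genes, in within-group SD, in liver, WAT and BAT (7 VAAM and 7 water mice each), by subfamily, with 1 representative probe set per gene. Points are differences, bars are standard errors, and red marks an unadjusted limma p under 0.05. Abcb8 in liver lies at -2.88, and no ABC gene lies above 1.25 in any tissue.

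The subfamilies had no common direction. In the liver of VAAM mice, 4 genes of subfamily A were higher and 10 lower, 2 and 6 of B, 4 and 6 of C, 2 and 1 of D, 0 and 1 of E, 2 and 1 of F, and 1 and 5 of G. In WAT the counts were 5 and 9 for A, 4 and 4 for B, 6 and 4 for C, 1 and 2 for D, 0 and 1 for E, 1 and 2 for F, and 3 and 3 for G. In BAT they were 9 and 5 for A, 3 and 5 for B, 4 and 6 for C, 0 and 3 for D, 1 and 0 for E, 1 and 2 for F, and 3 and 3 for G. None of the genes of bile formation reached an unadjusted p of 0.05 in liver. The difference was -0.67 ± 0.549 for Abcb11 and -0.68 ± 0.55 for Abcg5, and it was -0.05 for Abcb4, -0.07 for Abcc2 and -0.10 for Abcg8, each ± 0.535.

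The gene with the smallest p in liver was Abcb8, a transporter of the inner mitochondrial membrane. By probe set 1422015_a_at the 7 VAAM mice had values of -2.18 (lowest), -1.38 (median) and -0.71 (highest), and the water mice -0.94, 1.36 and 3.28. All 7 VAAM mice lay below the water median, and only the lowest water mouse fell within the range of the VAAM mice. The difference was -2.88 ± 0.762 SD (exact permutation p 0.00117, two-sided, limma adjusted p 0.33), and -4.66 without water replicate 6. On the deposited scale the SD of this probe set over the liver arrays was only 5.6e-06 log2 units. The other probe set of Abcb8, 1423713_at, went the other way. There the VAAM mice had -0.31, 0.74 and 1.65 and the water mice -1.85, -1.36 and 1.14, a difference of 1.33 ± 0.591 (exact permutation p 0.0326), and all 7 VAAM mice lay above the median of the water mice. The mean of both probe sets differed by 0.59 (exact permutation p 0.284), so the direction for the gene is not settled. After quantile normalisation the first probe set differed by -0.11 and the second by -1.04.

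Abcc8, the SUR1 channel subunit, which was low on the arrays of all tissues, had values of -2.40, -0.82 and 0.22 in the liver of VAAM mice and -0.29, 0.53 and 2.54 in water mice. Its difference was -1.85 ± 0.639 (exact permutation p 0.0035, limma adjusted p 0.371), and it was -0.12 after quantile normalisation. None of the VAAM mice lay above the median of the water mice. Abcg4, a sterol exporter known from the brain, had -1.95, -0.37 and 0.28 in VAAM mice and -0.44, 0.60 and 2.79 in water mice, a difference of -1.19 ± 0.58 (exact permutation p 0.0385). Abca9 was the only gene of this kind that was higher in VAAM mice, with -0.32, 0.87 and 1.40 against -2.55, -0.49 and 0.90 in water mice. Its difference of 1.25 ± 0.585 (exact permutation p 0.0385) was -0.53 after quantile normalisation and -0.37 with arrays centred on their median, so its direction flipped with the scaling. In all these genes the groups overlapped. Without the liver array that stood apart, Abcg4 differed by -1.04 (exact permutation p 0.0763) and Abca9 by 1.16 (exact permutation p 0.0624). Abca4, the retinoid transporter of photoreceptors, and Abcc10, a drug exporter, were the other genes over 1 SD (-1.09 ± 0.573 and -1.01 ± 0.567).

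**Figure D3:**
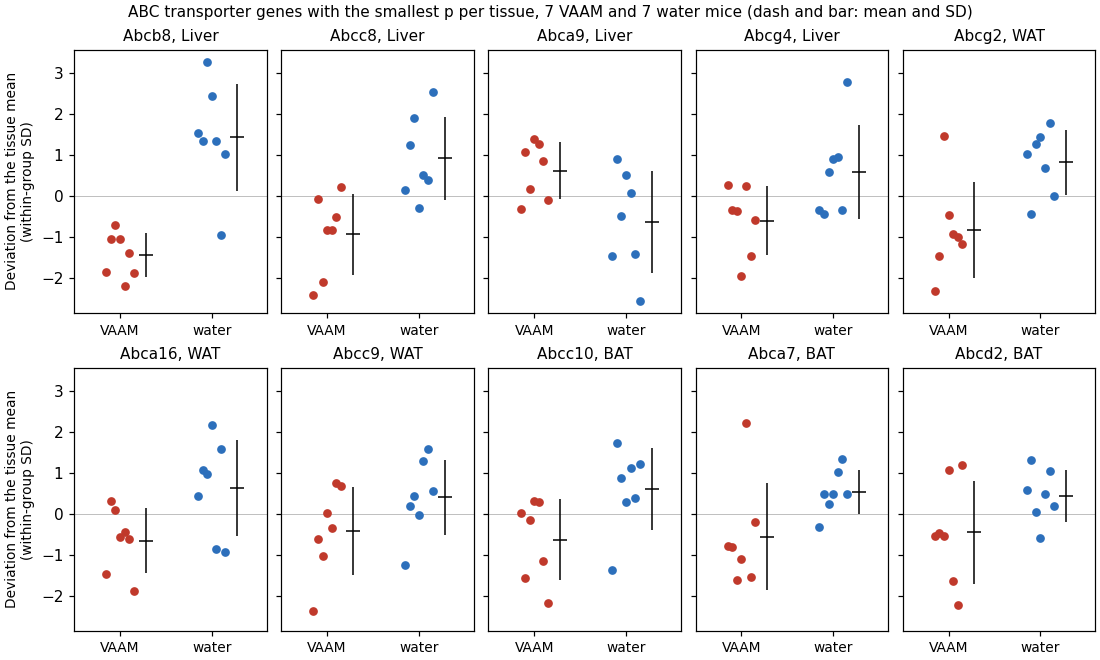
Deviation of each mouse from the mean of its tissue, in within-group SD, for the ABC genes with the smallest limma p in liver, WAT and BAT. Each point is 1 of 7 VAAM mice (red) or 7 water mice (blue), and the dash with its bar is the mean and SD. The ranges of VAAM and water mice overlap in every panel, and in the Abca7 panel 1 VAAM mouse stands at 2.22.

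In WAT, Abcg2 had the smallest p. The VAAM mice had values of -2.31, -0.99 and 1.48 and the water mice -0.43, 1.03 and 1.79. In 6 of the 7 VAAM mice the value was below that of every water mouse, and in replicate 3 it was near the top of the water range. The difference was -1.66 ± 0.619 (exact permutation p 0.0117, limma adjusted p 1), -2.81 without that mouse and -0.37 after quantile normalisation. Abca16, which was near the bottom of the arrays in every tissue, had -1.88, -0.56 and 0.33 in VAAM mice and -0.91, 0.97 and 2.18 in water mice, a difference of -1.28 ± 0.587 (exact permutation p 0.0355), which was -1.14 without the WAT array that stood apart (exact permutation p 0.0676). Abcc9, the SUR2 subunit, had -2.35, -0.33 and 0.75 in VAAM mice and -1.23, 0.45 and 1.58 in water mice, and its difference of -0.82 ± 0.556 did not pass (exact permutation p 0.152). Endothelial markers, which mark a cell type in which Abcg2 is also known, were higher in 1 and lower in 5 of 6 genes in the same arrays, with a median difference of -0.52 and list means of -2.53 to 0.41 SD in VAAM mice and -0.71 to 1.17 in water mice. Markers of smooth muscle and pericytes were higher in 1 and lower in 5 of 6 (median -0.60, list means -0.72 to 0.46 in VAAM mice and -0.25 to 0.62 in water mice). The endothelial Cdh5 differed by -1.13 ± 0.576 (exact permutation p 0.0262, unadjusted limma p 0.0511), and no other marker of either list had an exact or unadjusted limma p under 0.05. Their part in the values of Abcg2 and Abcc9 was not tested.

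In BAT, Abcc10 had values of -2.16, -0.13 and 0.32 in VAAM mice and -1.37, 0.89 and 1.75 in water mice. The difference was -1.24 ± 0.583 (exact permutation p 0.042, limma adjusted p 0.946), and it was -1.92 without water replicate 1. None of the VAAM mice lay above the median of the water mice. With arrays centred on their median it was 0.00. Abca7 had -1.61, -0.81 and 2.22 in VAAM mice and -0.31, 0.50 and 1.34 in water mice. In 6 VAAM mice the value was below the water median, and in replicate 5 it was above every water mouse, and the difference was -1.09 ± 0.573 (exact permutation p 0.0606) and -2.92 without that mouse. Abcg5, which was low on the BAT arrays, differed by -1.17 ± 0.579 (exact permutation p 0.0495), and 1 of 7 VAAM mice lay above the median of the water mice. Abcd2, the transporter that was high in fat, had -2.21, -0.53 and 1.19 in VAAM mice and -0.58, 0.49 and 1.32 in water mice, a difference of -0.89 ± 0.56 (exact permutation p 0.127).

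Probe sets of the same gene often disagreed, and this bears on the values above of genes with several probe sets. The other 19 ABC genes have 1 probe set. Of the 26 genes with several probe sets, 16 had differences of both signs in liver, 11 in WAT and 13 in BAT. The share over all genes was not counted, so this is not read as a trait of ABC genes. The pair of Abcb8 in liver lay farthest apart. Abcc5, an exporter of cyclic nucleotides and other organic anions, had 10 probe sets, with differences of -1.70 to 0.38 in liver. Of these, 2 were lower in VAAM mice at an unadjusted limma p under 0.05 (1418042_a_at -1.69 ± 0.623, exact permutation p 0.0105, and 1427565_a_at -1.70 ± 0.624, exact permutation p 0.0035), while its representative probe set differed by -0.43. Abcg3, known only from rodents, had a probe set that was higher in the liver of VAAM mice (1421168_at, 1.79 ± 0.632, exact permutation p 0.0035), and its representative probe set differed by -0.07. In WAT Abca13 1440370_at differed by -1.37 ± 0.594 (exact permutation p 0.0221). In BAT probe sets of Abcb10 (-1.29), Abcc9 (-1.36), Abcd2 (-1.32) and Abca3 (-1.16) that do not represent their genes had an unadjusted limma p under 0.05.

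**Figure D4:**
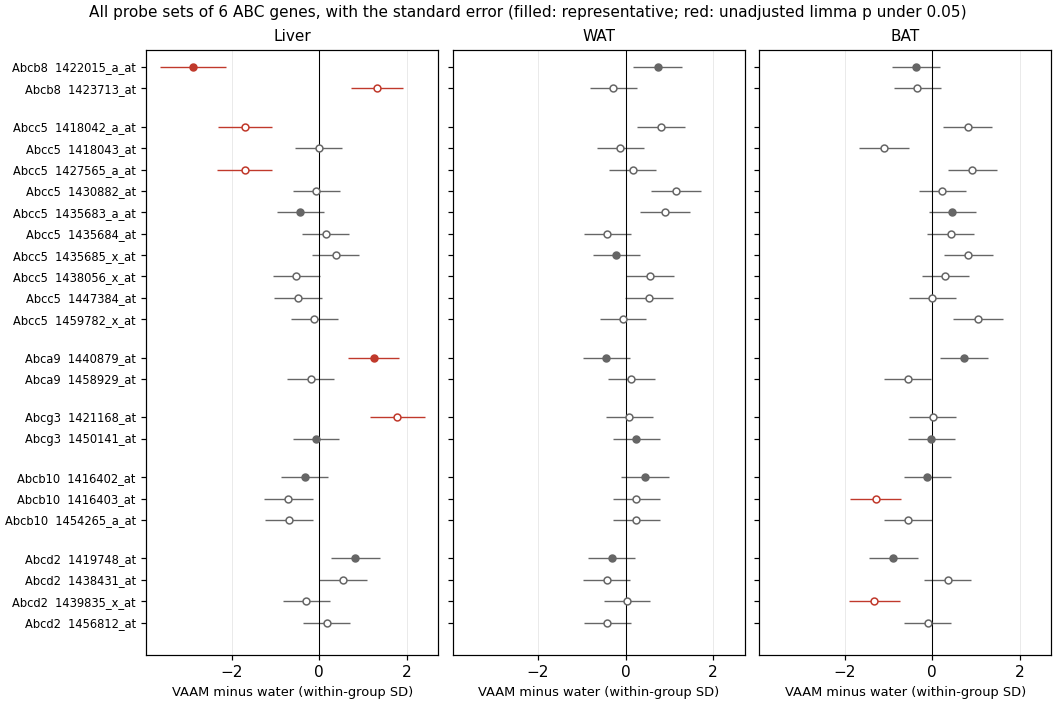
VAAM minus water in within-group SD for every probe set of 6 ABC genes in liver, WAT and BAT, with standard errors. Filled points are the representative probe sets, and red marks an unadjusted limma p under 0.05. The pair of Abcb8 probe sets lies at -2.88 and 1.33 in liver, and the probe sets of Abcc5 in liver lie on both sides of 0.

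The difference between VAAM and water was compared between tissues on values scaled to unit SD, in a fit with no term for the mouse although the tissues come from the same mice. The scaling gives every probe set the same residual variance, so the fit takes SDs estimated from these mice as known. Its p-values, adjusted or not, are therefore too small. One ABC probe set differed between liver and WAT at an adjusted limma p under 0.05 (0.249% of all probe sets), none between liver and BAT (0.153%) and none between BAT and WAT (0.02%). At an unadjusted p under 0.05 6 ABC probe sets were higher and 6 lower for liver against WAT (4.77% and 5.33% of all), 6 and 6 for liver against BAT (4.23% and 4.13%), and 1 and 1 for BAT against WAT (2.28% and 2.9%). The probe set was Abcb8 1422015_a_at, with a difference of -2.88 in liver and 0.73 in WAT, and an interaction of -3.60 (adjusted limma p 0.00565, and 0.00588 with arrays of the same treatment and number as a block). The fit with the block used the same scaled values, so the same limit holds for its p. After quantile normalisation no ABC probe set was called in any of the 3 comparisons.

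Pairs of members that work together or lie side by side were followed over the 14 mice of each tissue, after the group means had been removed. In liver, Abcg5 and Abcg8, whose starts face away from each other across the interval printed above, varied together (Pearson r 0.80, Spearman rho 0.74, permutation p adjusted over 15 relations 0.003 and 0.013). The coefficient was 0.72 without the 2 mice farthest from the median and 0.89 without the array that stood apart, and 0.0605% of all other genes correlated as highly with Abcg5. After quantile normalisation it was 0.41. In the fat tissues, where both genes were lower on the arrays, r was 0.16 in WAT and 0.33 in BAT (adjusted permutation p 0.633 and 0.339). After quantile normalisation r was 0.98 in WAT and 0.94 in BAT, so the contrast between liver and fat depended on the scaling. All pairs followed here then had r of 0.51 to 0.99 in fat. The share of all genes that correlated as highly was not counted on these values, so they are not read as a trait of the pair.

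Abcc9 and Kcnj8, which encode the SUR2 and Kir6.1 subunits of a potassium channel of vascular muscle, varied together in all tissues on the deposited values. Pearson r was 0.71 in liver, 0.82 in WAT and 0.76 in BAT (adjusted permutation p 0.0141, 0.003 and 0.00705), and 0.65, 0.55 and 0.58 without the 2 farthest mice. After quantile normalisation the coefficient was 0.22 in liver, 0.99 in WAT and 0.92 in BAT. On the deposited values the share of genes that correlated as highly with Abcc9 was 0.379% in liver, 1.87% in WAT and 0.077% in BAT. Abca1 and Abcg1, partners in cholesterol efflux, varied together in BAT (r 0.74, rho 0.94, adjusted permutation p 0.00769 and 0.00015), where the coefficient was 0.80 without the 2 farthest mice. In liver their r was -0.03 and in WAT 0.57, which was -0.14 without the 2 farthest mice. After quantile normalisation the r of this pair was 0.25 in liver, 0.94 in WAT and 0.51 in BAT. Abcb1a and Abcb1b, tandem copies of the multidrug exporter gene whose similar sequences the probes may not keep apart, had r of 0.68 in WAT and 0.67 in BAT (adjusted permutation p 0.0155 and 0.0217). In liver r was -0.17, with another probe set for Abcb1b (1446701_at) than in fat (1418872_at). Abca8a and Abca9 had r of 0.70 in WAT, which was 0.40 without the 2 farthest mice, and 0.22 in liver. In BAT their r was 0.38, and 0.80 without the 2 farthest mice. In WAT a coefficient is read against a wide spread of high values, since the median absolute r with all genes was 0.41 for Abcc9 and 0.43 for Abca8a.

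**Figure D5:**
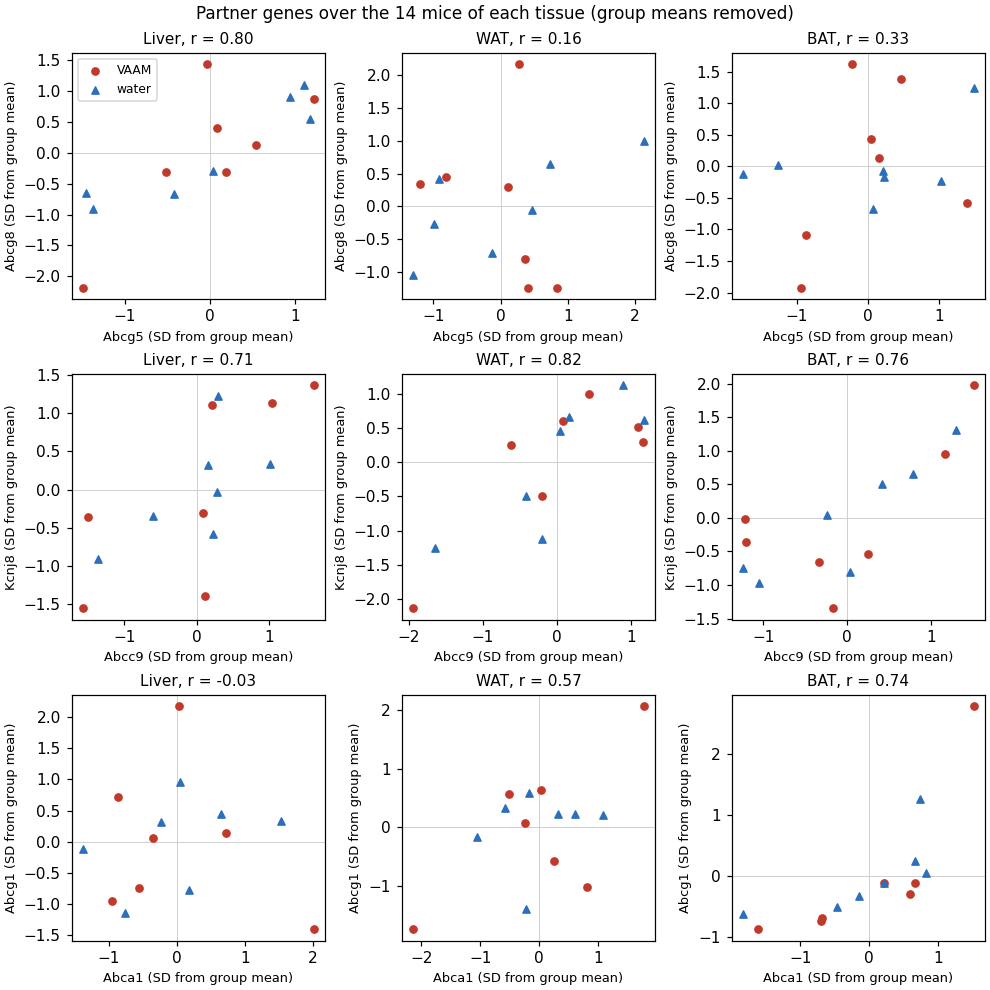
Deviation of each mouse from its group mean, in within-group SD, for Abcg5 and Abcg8 (top), Abcc9 and Kcnj8 (middle) and Abca1 and Abcg1 (bottom) in liver, WAT and BAT. Circles are VAAM mice and triangles are water mice, 14 per panel, and r is Pearson's coefficient. On these deposited values the points of Abcg5 and Abcg8 follow a line in liver (0.80) and not in WAT (0.16). After quantile normalisation r was 0.41 in liver and 0.98 in WAT, with no share over all genes counted on those values.

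Of 35 regulators, partners and further ABC genes under another symbol, 33 were measured, and none passed limma after adjustment. In liver 24 were higher and 9 lower in VAAM mice, against 8529 and 9663 of all genes. The median difference was 0.38 against -0.05 over all genes, and -0.06 after quantile normalisation. At an unadjusted limma p under 0.05, 3 of the 33 were higher and 1 lower (4.17% and 4.92% of all probe sets). The higher ones were Rxra (1.92 ± 0.646, exact permutation p 0.0035), the partner of the sterol and bile acid receptors, Scarb1 (1.28 ± 0.587, exact permutation p 0.035), the HDL receptor, and Nfe2l2 (1.22 ± 0.582, exact permutation p 0.046), the regulator of antioxidant genes. The lower one was Kcnj11, the channel partner of Abcc8, which differed by -1.38 ± 0.595 (exact permutation p 0.0245). Nr1h3 and Nr1h4, the receptors for oxysterols and bile acids, differed by 0.78 ± 0.555 and 0.45 ± 0.541. In WAT 12 were higher and 21 lower (median -0.09), against 9147 and 9045 of all genes. Scarb1 (-1.21 ± 0.581) and Kcnj8 (-1.22 ± 0.582) were lower at an unadjusted limma p under 0.05 (2.1% of all probe sets). In BAT 16 were higher and 17 lower (median -0.13), against 9354 and 8839 of all genes. Lcat, which esterifies cholesterol in HDL (-1.32 ± 0.59), and Kcnj11 (-1.30 ± 0.589) were lower at such a p (2.93% of all probe sets).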

How the data were processed

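RNA of liver, WAT and BAT was hybridised to 42 Affymetrix arrays, 1 per tissue and mouse. The authors condensed probes to probe sets with the DFW (distribution free weighted) method in R (2.7.2 in the submitters' processing notes), and the deposited values were taken as log2, the base not being stated. Of 45101 probe sets, 64 are controls and 45037 were tested with no filter on low values. 34945 name 1 gene, 932 several and 9160 none. RefSeq lists 50 mouse genes whose symbols fit the rule, of which 5 were not analysed here.

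The brightest probe set on average stood for a gene, within the tissue for VAAM against water and over all arrays for levels. The groups were compared in limma 3.58.1 (R 4.3.3) with Benjamini-Hochberg adjustment at 0.05 over all probe sets. Exact permutation tests were two-sided. They covered all splits of 14 mice into 7 and 7, and p-values are not adjusted over genes. Correlations used 100000 permutations. Rank products used 49 pairs of arrays and 50 permutations. Python 3.11.15, numpy 2.4.6, pandas 2.3.3, scipy 1.17.1 and matplotlib 3.10.9 were used, and the tests were tried on simulated data.

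Genes with full values were, in each tissue, those with an unadjusted limma p under 0.05 by the representative probe set, or the 3 with the smallest p, and, for levels, the 5 per tissue farthest above the nearer tissue with members of a known role in liver or fat. Abca4 and Abcg5, other probe sets and the order of examples were chosen after their values were seen. The members and lists were chosen with earlier results of these data known. Percentiles, levels normalised over 42 arrays and the arrays that stood apart were chosen after seeing the data. Replicate numbers were not used to pair VAAM with water mice in the main fit. The block for the mouse between tissues was added after seeing the data. Nothing in the labels says that mice were separate litters or cages, so a p-value measures the spread between these mice. Depth has no meaning for arrays, and their number limits the precision.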

Additional observations from a re-analysis of the deposited data

Results flagged for a closer look

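Of 20 groups of 7 mice examined among the genes with full values, 1 held a mouse that stood apart from the rest, and chance gives about 1 in 20. It was VAAM replicate 5 in Abca7 of BAT, whose gap to the next mouse was 0.63 of the range of the group (limit 0.568). This array was also 1 of the 2 BAT arrays that stood apart over all probe sets, and without both the difference was -2.77 (exact permutation p 0.00253). The effect of VAAM on Abcb8 1422015_a_at differed between liver and WAT by -3.60 SD (interaction in limma, adjusted p 0.00565), while the second probe set of the gene had the opposite sign in liver. The scaling to unit SD makes this p too small.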

How the results depend on the processing

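Limma called no ABC probe set for VAAM against water in any tissue with a replicate block, with probe sets above the median alone, after quantile normalisation, with a trend and a robust prior, without each array in turn (0 to 0) and without the arrays that stood apart. One fit over 42 arrays called 2 in liver and 1 in BAT, all lower (0.81% and 0.475% of all probe sets were called lower, 0.724% and 0.224% higher). Rank products made 7 calls in liver (6 probe sets, 1 of them in both directions, and all 3 higher ones of Abcd2), 1 in WAT and 5 in BAT. At an unadjusted p under 0.05 the replicate block gave 5 higher and 6 lower in liver (4.42% and 4.47% of all). Same-numbered VAAM and water mice correlated at -0.13 to 0.14 in liver, -0.08 to 0.48 in WAT and -0.19 to 0.17 in BAT. Of 7 VAAM mice, 1 in liver, 3 in WAT and 3 in BAT correlated best with the water mouse of the same number. The labels describe no pairing, and whether the numbers mark a shared order was not tested. With the block, Abcg4 in liver (-1.15) and Abcc10 in BAT (-1.02) missed an exact p of 0.05, and no other call changed. Between tissues all 92 ABC probe sets were called, without each mouse number too, and 55 of 55 with probe sets above the median, because fewer were tested. The call between liver and WAT for 1 probe set became 0 after quantile normalisation and stayed 1 with a block for the mouse. Reversed were Abcb8 in liver by the mean of its probe sets (0.59) and Abca9 in liver after quantile normalisation (-0.53) and with arrays centred (-0.37), and Abcc10 in BAT had no direction with arrays centred (0.00). The cause was not tested. After quantile normalisation 6 of 10 named differences no longer had an exact p under 0.05 and 1 more was reversed. The other 3, Abcc9 in WAT and Abca7 and Abcd2 in BAT, had no exact p under 0.05 as deposited. No difference with such a p therefore kept it with its direction. Leaving out 1 mouse gave -4.66 to -2.71 for Abcb8, -2.12 to -1.70 for Abcc8, 1.11 to 1.64 for Abca9, -1.38 to -1.01 for Abcg4, -2.81 to -1.50 for Abcg2, -1.69 to -1.12 for Abca16, -1.22 to -0.60 for Abcc9, -1.92 to -1.07 for Abcc10, -2.92 to -0.93 for Abca7 and -1.29 to -0.68 for Abcd2. An exact p of 0.05 was missed without 1 mouse in 8 of 14 cases for Abca9, 9 for Abcg4, 8 for Abca16 and 9 for Abcc10, and in 0 for Abcb8, Abcc8 and Abcg2. Quantile normalisation gave correlations of the partner pairs of -0.04 to 0.41 in liver and 0.51 to 0.99 in WAT and BAT, and the cause was not tested.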

Other observations

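Other marker lists gave these values for VAAM against water. No marker passed limma after adjustment in any tissue. Endothelial markers were higher in 5 and lower in 1 of 6 genes in liver (median difference 0.48, with Cdh5 at 1.84 ± 0.638, exact permutation p 0.00466) and higher in 2 and lower in 4 in BAT (-0.24). Smooth muscle and pericyte markers were higher in 4 and lower in 2 of 6 in liver (0.42) and higher in 2 and lower in 4 in BAT (-0.09). Macrophage markers, which bear on Abca1 and Abcg1 as genes that macrophages also express, were higher in 6 of 6 genes in liver (median difference 0.53), in 4 of 6 in WAT (0.16) and in 4 of 6 in BAT (0.12). Skeletal muscle markers were lower in 6 of 6 genes in liver (-0.70) and higher in 6 of 6 in BAT (0.15). Epididymis markers in WAT were higher in 2 of 6 measured genes, Lcn5 (2.16 ± 0.673, exact permutation p 0.00175) and Defb15 (0.85 ± 0.558, exact permutation p 0.0035), and the other 4 lay between -0.12 and -0.02 (median of the list -0.02), with list means of -0.49 to 2.41 SD in VAAM mice and -0.80 to 1.32 in water mice. Hepatocyte markers in liver were higher in 3 and lower in 2 of 5 measured genes (0.18), adipocyte markers in WAT higher in 1 and lower in 4 of 5 (-0.38) and in BAT higher in 4 and lower in 1 of 5 (0.64, with Adipoq at 1.96 ± 0.65, exact permutation p 0.00466), brown adipocyte markers in BAT higher in 3 and lower in 3 of 6 (0.08), and mesothelial and epithelial markers in WAT higher in 4 and lower in 2 of 6 (0.24).

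By rank products the ABC genes with a representative probe set called were Abcd2 (higher) and Abcc3, Abcg5 and Abcc12 (lower) in the liver of VAAM mice, and Abca1 and Abca8a (higher) and Abcd2 and Abcg1 (lower) in BAT. Only 1 of them, Abcd2 in BAT, was among the genes with the smallest limma p. A further probe set of Abcd2, 1456812_at, was called in both directions in liver.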
